A study of Homo sapiens with 6 samples.

Results

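The 10 genes described here encode dual-specificity phosphatases, which remove phosphate from mitogen-activated protein kinases (MAPKs). They were chosen by name as DUSP1, DUSP2, DUSP4, DUSP5, DUSP6, DUSP7, DUSP8, DUSP10, DUSP14 and DUSP16, and were 10 of the 19514 gene names in the deposited table. Rows that share a name were summed, which joined 2 rows for DUSP14, 2 for DUSP16 and 3 for DUSP8. All 10 passed the filter on low counts, DUSP8 only through its tt-DDE libraries. The cells were of the established human line ARPE-19, derived from retinal pigment epithelium, with the genotype WT, grown in serum-containing DMEM/F-12 medium. One group received tt-DDE at 40 µM for 24 h, and the other an equal volume of its vehicle DMSO for 24 h. The compound is trans, trans-2,4-decadienal, a reactive aldehyde that arises from oxidised linoleic acid, for example in heated cooking oils. Each group held 3 libraries of poly(A)-selected RNA. The labels do not say that they came from separate cultures, so p-values measure the spread between these libraries, which may be technical.

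MAPK cascades pass signals from receptors and from cell stress to the kinases ERK, JNK and p38, which are switched on by phosphorylation of a threonine and a tyrosine in the activation loop. MAPK phosphatases remove both phosphates and so switch the kinases off. Many of their genes are themselves induced by MAPK signalling, which makes them feedback brakes, and the proteins differ in where they sit in the cell and in which kinase they bind. DUSP1, DUSP2, DUSP4 and DUSP5 are nuclear and inducible, DUSP6 and DUSP7 are cytoplasmic and prefer ERK, DUSP8, DUSP10 and DUSP16 prefer JNK and p38, and DUSP14 is a small atypical member without the kinase-binding domain of the others.

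The total count was 14156421 to 16061373 in the DMSO libraries and 15548067 to 17130543 in the tt-DDE libraries. Levels below are in CPM, each gene's count relative to the library total after scaling with TMM factors, which correct for library composition. At 3 counts in a library the counting floor was 0.175 to 0.212 CPM on library size. Of 16 markers of retinal pigment epithelium, RPE65 and CRX had 0 counts in all 6 libraries, and TYR, TTR and RGR had 0 in DMSO. The factors OTX2 (64.0 CPM in DMSO and 62.9 after tt-DDE) and MITF (59.4 and 54.3 CPM) and the keratin KRT8 (748 and 214 CPM) were present. Of the 11 markers that passed the filter, 4 were higher, 4 lower and 3 not called, where 83.3% of all genes tested were called. The chloride channel BEST1 went from 0.506 CPM, at 8 counts in each DMSO library, to 21.6 CPM. The receptor kinase MERTK went from 2.52 to 13.3 CPM, so both moved opposite to KRT8. Among leukocyte markers, 2 of 7 passed the filter and summed levels were 127 to 132 CPM in DMSO and 100.0 to 117 CPM after tt-DDE. This was almost wholly CD68, a lysosomal protein, while PTPRC had 0 to 3 counts a library and CD3E had 0. CD14, the other leukocyte marker that passed, had 1, 1 and 0 counts in DMSO and 39, 23 and 22 after tt-DDE. Of endothelial markers 1 of 5 passed, with summed levels of 1.40 to 1.56 and 2.02 to 2.19 CPM. Of photoreceptor and neuron markers 3 of 7 passed (16.003 to 18.7 and 10.3 to 11.1 CPM, SAG at 0 in all 6 libraries). Of fibroblast and muscle markers 2 of 7 passed (48.5 to 52.1 and 30.4 to 33.4 CPM, DCN and LUM at 0 in DMSO). The part of any other cell type in the results was not tested.

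Promoter windows from RefSeq (GRCh38.p14, from 250 bases before to 50 bases after the transcription start) were found for 8 of the 10 genes, DUSP10 having 2 starts. No window was available here for DUSP4 and DUSP5, so neither was searched for motifs. Windows are shown for DUSP1 and DUSP8, which hold the palindromic cAMP response element, and for DUSP7 as a window without it. Of the 5 genes with a window that rose after tt-DDE, DUSP1 and DUSP8 hold the element and DUSP6, DUSP10 and DUSP16 lack it. DUSP2, DUSP7 and DUSP14, which fell, lack it too. The part of the element in these changes was not tested. The motifs and windows were picked with these changes known. Each is written 5′ to 3′ on the gene's strand, which is the minus strand for all 3. Capitals mark the cAMP response element (TGACGTCA, bound by factors of the CREB and ATF families) and the TATA box (TATAAA).
DUSP1, chr5:172771146-172771445: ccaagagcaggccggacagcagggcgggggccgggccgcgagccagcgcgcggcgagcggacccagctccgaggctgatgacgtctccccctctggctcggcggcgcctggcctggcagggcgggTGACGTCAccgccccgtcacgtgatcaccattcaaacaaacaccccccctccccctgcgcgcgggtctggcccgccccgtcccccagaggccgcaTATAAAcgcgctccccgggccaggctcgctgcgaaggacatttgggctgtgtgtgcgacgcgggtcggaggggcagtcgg
DUSP8, chr11:1572222-1572521: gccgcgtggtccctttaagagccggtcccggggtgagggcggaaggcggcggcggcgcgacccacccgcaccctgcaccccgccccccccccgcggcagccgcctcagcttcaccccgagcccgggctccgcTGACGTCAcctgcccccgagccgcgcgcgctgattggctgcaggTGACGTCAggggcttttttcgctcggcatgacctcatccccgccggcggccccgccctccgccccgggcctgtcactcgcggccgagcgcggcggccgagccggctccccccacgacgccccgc
DUSP7, chr3:52056522-52056821: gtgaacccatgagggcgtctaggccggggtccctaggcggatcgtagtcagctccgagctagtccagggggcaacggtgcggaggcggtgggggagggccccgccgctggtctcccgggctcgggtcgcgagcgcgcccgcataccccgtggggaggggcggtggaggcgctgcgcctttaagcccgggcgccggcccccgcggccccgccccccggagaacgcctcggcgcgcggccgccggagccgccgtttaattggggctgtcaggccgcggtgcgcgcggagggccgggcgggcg

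The cAMP response element was present once in the DUSP1 window, 125 bases before the start, and at 2 places in the DUSP8 window, 118 and 74 bases before it. It was in 1.85% of 35116 RefSeq windows of this length, searched on both strands. DUSP1 was the only one of the 8 genes with a TATA box in its window, 30 bases before the start, a motif in 11.5% of windows. An E box (CACGTG, 7.26% of windows) was found in DUSP1 and DUSP2. The antioxidant response element (TGACNNNGC, 13.3% of windows) was found in DUSP1 and at the downstream start of DUSP10, and the DUSP1 match overlaps a GC box and the E box. CCAAT boxes (CCAAT, 34.6% of windows) were found in DUSP6, DUSP7, DUSP8 and the upstream start of DUSP10. GC boxes (GGGCGG, 45% of windows) were in the windows of each gene except DUSP6. No window held an AP-1 site (TGANTCA, 7.71% of windows), a C/EBP-ATF element (TGATGNAA, 3.62%), a heat shock element (GAANNTTC, 6.77%) or a CArG box (1.29%). The RefSeq start of DUSP8 lies inside the deposited row, which spans bases 1554051 to 1572839 of chromosome 11.

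**Figure D1:**
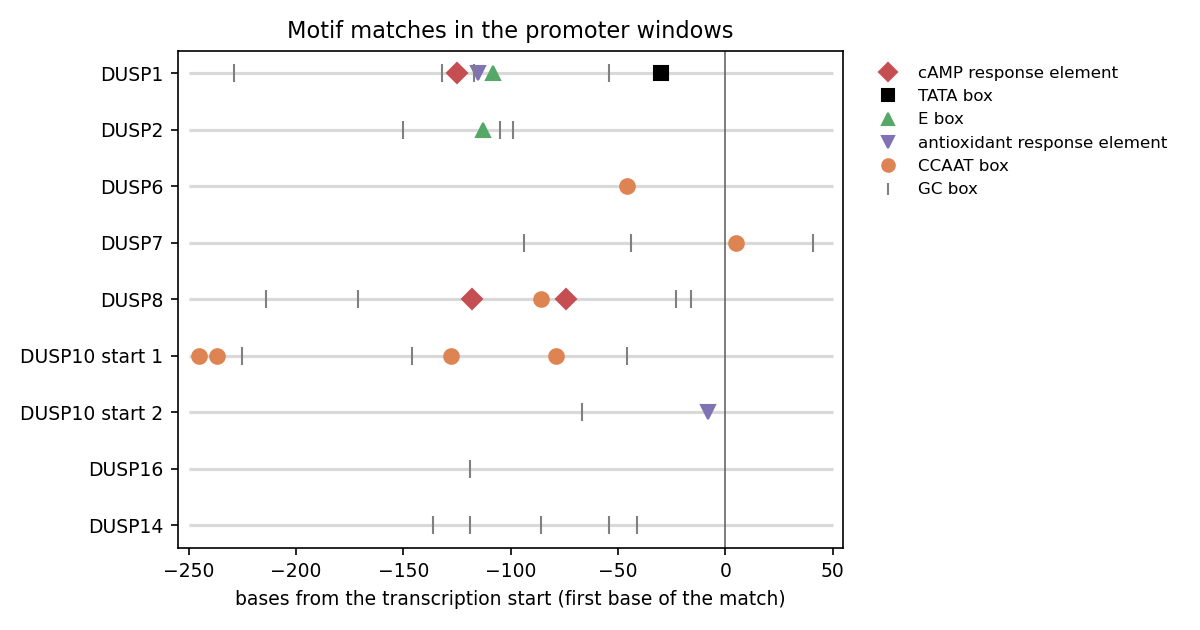
Motif matches in the RefSeq promoter windows of the 8 genes with a window available here, by distance in bases from the transcription start (vertical line). Each symbol is the first base of a match on either strand. cAMP response elements are at -125 in DUSP1 and at -118 and -74 in DUSP8, and the TATA box is at -30 in DUSP1.

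The 3′ untranslated regions were searched for the AU-rich nonamer, a sequence bound by proteins that speed mRNA decay. In GENCODE 29, taking each gene's coding transcript with the longest such region, DUSP1 has 2 nonamers in 672 bases, DUSP8 has 1 in 2474 bases and DUSP4 has 1 in 3962 bases, and the other 7 genes have 0. The nonamer was in 8.16% of 19113 genes, and in 13.3% of the 10010 genes with a region of at least 1000 bases. The shorter pentamer ATTTA occurs 5.95 times per 1000 bases in DUSP1, against a median of 1.48 over all genes, and 0 times in DUSP5 and DUSP7. The nonamer of DUSP4 is not shown. The nonamers of DUSP1 and DUSP8 are shown in capitals with the 8 bases on either side (GRCh38, minus strand).
DUSP1, chr5:172768645-172768669: gctggtccTTATTTATTtaacttca
DUSP1, chr5:172768377-172768401: aatataccTTATTTATTtttgtgta
DUSP8, chr11:1556376-1556400: tcgattttTTATTTATTtaagctgt

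After tt-DDE, 6 of the 10 phosphatase genes were higher (DUSP1, DUSP5, DUSP6, DUSP8, DUSP10 and DUSP16) and 4 were lower (DUSP2, DUSP4, DUSP7 and DUSP14), as called by a Benjamini-Hochberg adjusted p under 0.05 in edgeR's quasi-likelihood test. In these bulk samples fewer cells of a kind and less RNA per cell cannot be told apart. The test called 83.3% of the 12531 genes tested, 41.7% higher and 41.6% lower, so calls in 10 of 10 members stand against a background in which most genes were called. The members' median log2 fold change was 0.34, against 0.00 over all genes tested, and their median size regardless of sign was 0.76, against 0.67. DUSP8 and DUSP16 rose by at least 2-fold, which 16.1% of all genes did, and no member fell by as much, which 16.8% did. DUSP8 entered this count through its tt-DDE libraries, which let it pass the filter. In 10 of 10 members the CPM of the groups did not overlap, as in 83.9% of all genes. The 3 members classed by a preference for JNK and p38 were higher, DUSP8 and DUSP16 among them at 53 or fewer counts a library. Members of other classes, such as DUSP1, also act on JNK and p38. The nuclear inducible and the cytoplasmic ERK classes each held members that rose and members that fell.

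**Figure D2:**
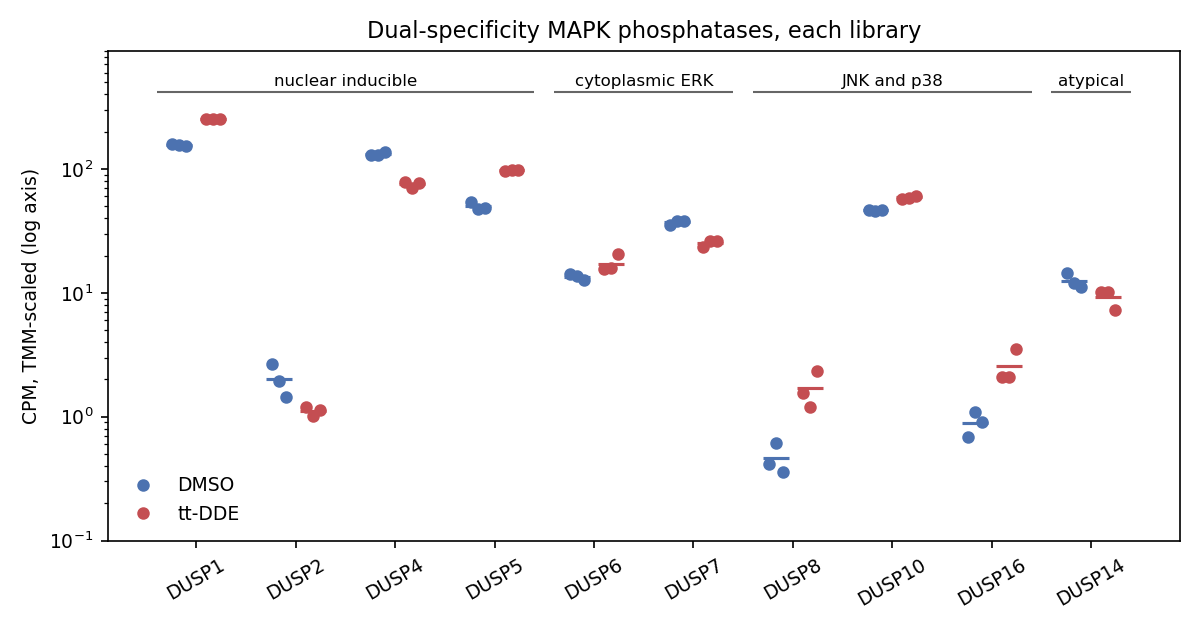
CPM of each phosphatase gene in each library on a log axis, with DMSO in blue and tt-DDE in red (3 points a group, line at the mean) and the classes named above. DUSP1 lies between 152 and 159 CPM in DMSO and between 252 and 254 CPM after tt-DDE, and DUSP8 and DUSP16 lie at or under 3.52 CPM in every library.

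DUSP1 (MKP-1, chr5:172768096-172771195), the immediate early phosphatase that acts on p38, JNK and ERK in the nucleus, had the highest level per length of the 10 genes in both groups. It was at 159, 155 and 152 CPM in DMSO libraries 1 to 3 and at 254, 252 and 254 CPM in tt-DDE libraries 1 to 3. The libraries of a group lay within a few CPM of each other and the groups were far apart. DUSP1 rose by 0.70 on the log2 scale (SE 0.0389, 1.63-fold), with an adjusted p of 3.38e-21 (Benjamini-Hochberg) by edgeR's quasi-likelihood test. This was a middling change for these cells, since 47.6% of the genes tested changed by more. An antisense RNA gene of GENCODE 29, AC022217.3, covers the whole DUSP1 row on the other strand, and since the use of strand in counting is not given in the sources used here, reads from the pair cannot be told apart.

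DUSP5 (chr10:110497907-110511533), a nuclear phosphatase specific for ERK and a known transcriptional target of ERK signalling, was at 54.3, 47.3 and 48.5 CPM in DMSO and at 95.6, 97.4 and 98.5 CPM after tt-DDE. Every tt-DDE library lay far above every DMSO library. The rise was 0.96 on the log2 scale (SE 0.0544, 1.95-fold), with an adjusted p of 9.21e-21 by edgeR's quasi-likelihood test.

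DUSP4 (MKP-2, chromosome 8), a nuclear relative of DUSP1, moved the other way. It was at 129, 129 and 137 CPM in DMSO and at 78.0, 70.8 and 77.4 CPM after tt-DDE. Every tt-DDE library lay below every DMSO library. DUSP4 fell by 0.81 on the log2 scale (SE 0.0483, 1.75-fold lower), with an adjusted p of 7.04e-20 by edgeR's quasi-likelihood test. DUSP2 (PAC-1, chr2:96143166-96145468), best known from activated lymphocytes, had few reads, with 39, 32 and 24 counts in DMSO and 20, 16 and 17 after tt-DDE. In CPM it was at 2.68, 1.95 and 1.44 in DMSO and at 1.20, 1.01 and 1.13 after tt-DDE, so that the lowest DMSO library was close to the highest tt-DDE library. The fall was 0.84 on the log2 scale as fitted (log2 fold change -0.84, SE 0.300, adjusted p 0.00957 by edgeR's quasi-likelihood test). The call was lost without DMSO library 1 (log2 fold change -0.61, adjusted p 0.0943 by edgeR) and with DESeq2 (-0.86, adjusted p 0.0506), and the log2 fold change on the log2(FPKM + 1) scale was -0.42.

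Ratios between genes of the nuclear class were taken in FPKM, which are reads per gene length and library size. The DUSP1 level was 4.43, 4.34 and 4.03 times the DUSP4 level in DMSO libraries 1 to 3, and 11.8, 12.9 and 11.8 times in tt-DDE libraries 1 to 3. The DUSP5 to DUSP4 ratio was 1.23, 1.07 and 1.04 in DMSO and 3.60, 4.04 and 3.74 after tt-DDE. Neither ratio overlapped between the groups. This was fixed in advance, since each ratio sets a gene that rose over a gene that fell, each without overlap between the groups. For each ratio the two-sided exact permutation test gave p = 0.1, the smallest that 3 libraries against 3 allow, so no ratio could pass 0.05. With the separation given, this p-value was fixed in advance too.

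The cytoplasmic ERK phosphatases also split. DUSP7 (MKP-X, chr3:52048919-52056571) was at 35.4, 38.2 and 38.2 CPM in DMSO and at 23.6, 26.1 and 26.3 CPM after tt-DDE. The groups were well apart, and DUSP7 fell by 0.56 on the log2 scale (SE 0.0726, 1.47-fold lower), with an adjusted p of 2.57e-09 by edgeR's quasi-likelihood test. DUSP6 (MKP-3, chr12:89347235-89352501), a widely used readout of ERK activity, was at 14.1, 13.7 and 12.7 CPM in DMSO and at 15.5, 15.8 and 20.5 CPM after tt-DDE. Its rise leaned on tt-DDE library 3, with the other tt-DDE libraries a little above the highest DMSO library. The log2 fold change of DUSP6 was 0.35 (SE 0.107, adjusted p 0.00279 by edgeR's quasi-likelihood test). Without tt-DDE library 3 it was 0.21 and not called (adjusted p 0.0729 by edgeR), and limma on log2(FPKM + 1) gave 0.20 (adjusted p 0.0600 by limma). The FPKM ratio of DUSP6 to DUSP7 was 0.371, 0.332 and 0.309 in DMSO and 0.608, 0.558 and 0.721 after tt-DDE. It was 1 of 3 such ratios computed, again without overlap and with p = 0.1 in the exact permutation test. This pair too sets a gene that rose over a gene that fell, so both outcomes were fixed in advance. GENCODE 29 places an antisense gene, AC024909.2, over 1487 bases of the DUSP6 row on the other strand.

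Among the phosphatases that prefer JNK and p38, DUSP10 (MKP-5, chr1:221701424-221742091) was the one with a substantial level as counted. It was at 46.9, 46.1 and 46.5 CPM in DMSO and at 57.3, 58.6 and 60.8 CPM after tt-DDE. The spread within each group was small next to the gap between them. DUSP10 rose by 0.34 on the log2 scale (SE 0.0574, 1.27-fold), with an adjusted p of 7.50e-07 by edgeR's quasi-likelihood test.

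DUSP16 (MKP-7, chr12:12473282-12562863), which binds JNK, had 10, 18 and 15 counts in DMSO and 35, 33 and 53 counts after tt-DDE, summed over its primary row and a row on an alternate scaffold. This was 0.687, 1.10 and 0.901 CPM against 2.10, 2.08 and 3.52 CPM. On the summed counts the lowest tt-DDE library was well above the highest DMSO library. In counts not scaled to library size, neither row alone kept the groups apart, since the groups shared a value in each row. The chromosome 12 row had 6, 6 and 2 counts in DMSO and 6, 20 and 20 after tt-DDE. The scaffold row, with 63.4% of the counts, had 4, 12 and 13 in DMSO and 29, 13 and 33 after tt-DDE. DUSP16 rose by 1.49 on the log2 scale (SE 0.304, 2.81-fold), with an adjusted p of 2.04e-05 by edgeR's quasi-likelihood test. DUSP8 (chr11:1554051-1572839), known mainly from brain and heart, was lower still, with 6, 10 and 6 counts in DMSO and 26, 19 and 35 after tt-DDE. Its chromosome 11 row had 2, 7 and 1 counts in DMSO and 9, 6 and 13 after tt-DDE, which overlap. A scaffold row with 62.75% of the counts had 4, 3 and 5 in DMSO and 17, 13 and 22 after tt-DDE, which do not. The 22 summed counts of DUSP8 in DMSO and 80 after tt-DDE give a ratio of 3.64 with an exact 95% counting interval of 2.25 to 6.13. The fitted rise was 1.85 on the log2 scale (SE 0.382, adjusted p 2.53e-05 by edgeR's quasi-likelihood test), and 10.9% of the genes tested changed by more. DUSP8 passed the filter on low counts only through the tt-DDE libraries, where it was higher. Its call and rank thus depend in part on the rise itself. Without that filter the log2 fold change was 1.82 (adjusted p 9.62e-06 by edgeR's quasi-likelihood test). On the log2(FPKM + 1) scale, which understates low genes, the changes of DUSP8 and DUSP16 were 0.24 and 0.26. Genes on the other strand overlap the primary rows of both genes in GENCODE 29, KRTAP5-AS1 over 1487 bases of DUSP8 and AC007619.1 over 6229 bases of DUSP16.

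DUSP14 (MKP6, chr17:37488561-37513501), an atypical member known from T cell signalling, had 212, 196 and 186 counts in DMSO and 169, 161 and 109 counts after tt-DDE. In CPM it was at 14.6, 12.0 and 11.2 in DMSO and at 10.2, 10.1 and 7.25 after tt-DDE. DMSO library 1 was the highest and tt-DDE library 3 the lowest, and the groups did not overlap. DUSP14 fell by 0.44 on the log2 scale (SE 0.128, 1.36-fold lower), with an adjusted p of 0.00166 by edgeR's quasi-likelihood test. The primary chromosome row held 2.61% of the counts of this symbol and a row on an alternate scaffold 97.4%. The row of the alternate scaffold alone gave a log2 fold change of -0.43.

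**Figure D3:**
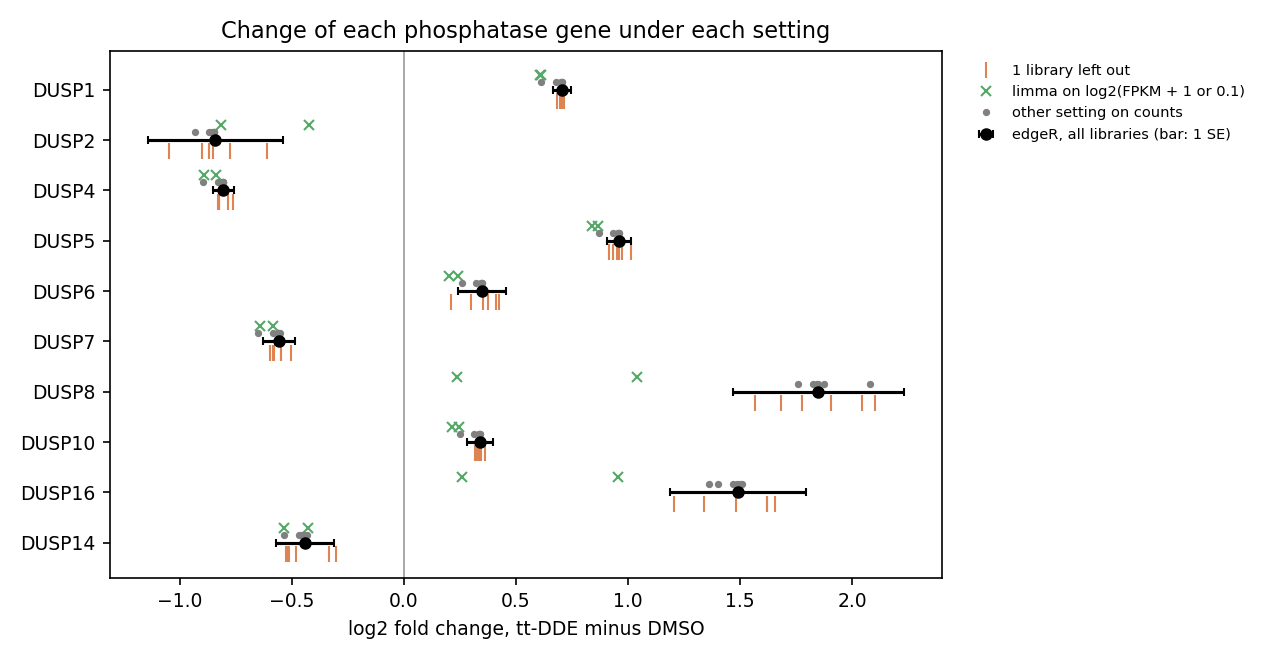
log2 fold change (tt-DDE minus DMSO) of each phosphatase gene, with the edgeR value of all libraries in black (bar of 1 SE), values with 1 library left out as orange ticks, other settings on counts as grey points and limma on log2(FPKM + 1 or 0.1) as green crosses. No value changes sign, and the crosses of DUSP8 (0.24 and 1.04) and DUSP16 (0.26 and 0.96) lie left of the count values of 1.85 and 1.49.

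Levels between genes were compared in FPKM. DUSP8, DUSP14 and DUSP16 have further rows of the same length on alternate scaffolds. How reads that match more than 1 row were counted is not given in the sources used here, so the levels of these genes may be too low. In DMSO the order was DUSP1 (79.7 ± 1.37 FPKM, SD, n = 3), DUSP5 (20.8 ± 1.50 FPKM), DUSP4 (18.7 ± 0.672 FPKM), DUSP7 (11.4 ± 0.534 FPKM), DUSP10 (5.76 ± 0.0467 FPKM), DUSP14 (4.21 ± 0.579 FPKM), DUSP6 (3.85 ± 0.189 FPKM), DUSP2 (1.16 ± 0.352 FPKM), DUSP16 (0.134 ± 0.0308 FPKM) and DUSP8 (0.0799 ± 0.0227 FPKM). The ranges over libraries overlapped for DUSP14 and DUSP6 and for DUSP16 and DUSP8, and the ranges of DUSP5 and DUSP4 nearly met. After tt-DDE the order was DUSP1 (122 ± 0.936 FPKM), DUSP5 (37.98 ± 0.493 FPKM), DUSP4 (10.0 ± 0.557 FPKM), DUSP7 (7.30 ± 0.416 FPKM), DUSP10 (6.84 ± 0.192 FPKM), DUSP6 (4.60 ± 0.745 FPKM), DUSP14 (2.89 ± 0.528 FPKM), DUSP2 (0.599 ± 0.0546 FPKM), DUSP16 (0.360 ± 0.116 FPKM) and DUSP8 (0.276 ± 0.0939 FPKM). Here DUSP7 overlapped DUSP10 and DUSP16 overlapped DUSP8. DUSP6 and DUSP14 exchanged places between the groups, and the other 8 kept their rank.

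The summed level of the 10 genes was 149, 144 and 144 FPKM in DMSO and 193, 191 and 195 FPKM after tt-DDE. DUSP1 made up 54.6% ± 0.416 of it in DMSO and 63.2% ± 0.517 after tt-DDE (SD, n = 3). DUSP5 went from 14.3% ± 0.744 to 19.7% ± 0.222 and DUSP4 from 12.8% ± 0.624 to 5.21% ± 0.253. The share of the 4 nuclear inducible genes was 82.3% to 82.8% in DMSO and 88.1% to 88.9% after tt-DDE, and that of the 2 cytoplasmic ERK genes 9.94% to 10.8% and 5.70% to 6.70%. The 3 genes that prefer JNK and p38 held 4.00% to 4.15% and 3.75% to 4.08%, which overlap, and the levels of DUSP8 and DUSP16 in this share may be too low. These sums are given without a test, since they follow from the genes chosen.

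**Figure D4:**
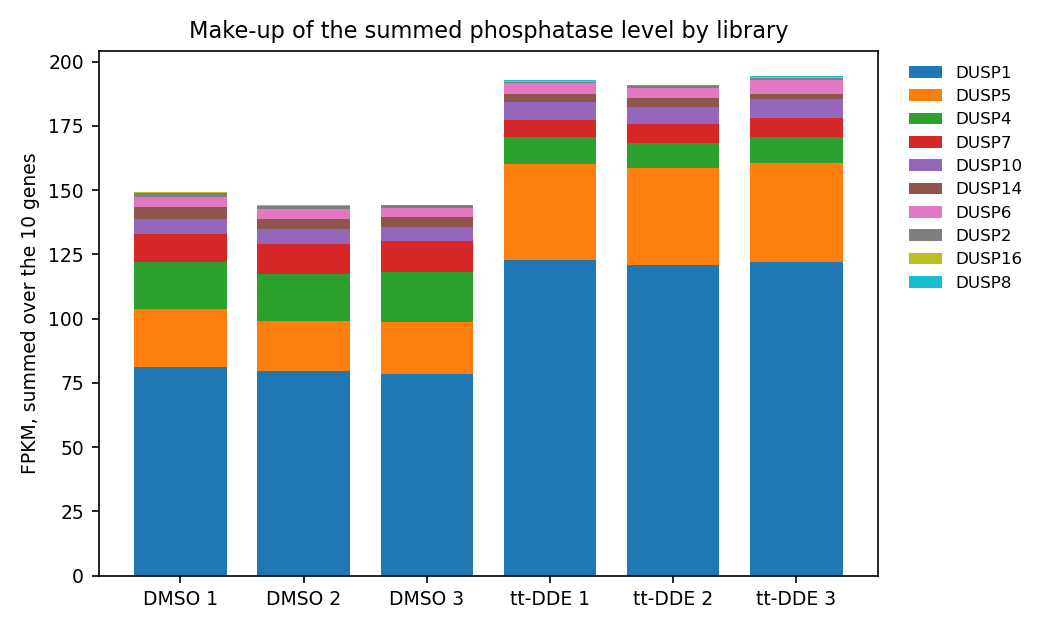
FPKM summed over the 10 phosphatase genes in each library, stacked by gene in the order of their DMSO level. DUSP1 is the blue base of each bar, at 78.5 to 81.2 FPKM in DMSO and 121 to 123 FPKM after tt-DDE, and the green DUSP4 segment is smaller in each of the tt-DDE bars.

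Other genes of the same superfamily were described from a list of 22 genes in the table. Of these, 16 were tested, 5 were higher, 7 lower and 4 not called (75% called, median log2 fold change -0.14). The counts of this paragraph stand against 83.3% of all genes called, 41.7% higher and 41.6% lower, and were not tested against that share. DUSP3 (VHR), an atypical phosphatase of ERK and JNK, rose from 213 ± 14.4 to 300.3 ± 7.22 CPM (SD, n = 3) and DUSP12 from 21.4 ± 1.37 to 32.8 ± 2.62 CPM. DUSP23 fell from 14.6 ± 1.79 to 5.80 ± 1.68 CPM, and PTPMT1, a phosphatase of mitochondrial lipids, from 79.4 ± 1.63 to 45.4 ± 0.258 CPM. DUSP9 (MKP-4), the third cytoplasmic ERK phosphatase, had 34 counts in DMSO and 29 after tt-DDE and was not called (ratio 0.854, exact 95% counting interval 0.502 to 1.44). Of 9 tested genes for MAPK phosphatases of other families, counted with subunits that are not catalytic, 5 rose and 2 fell. Among those that rose were PPP2CB, a catalytic subunit of PP2A, by 1.39 on the log2 scale (SE 0.0440) and PPM1B by 0.84 (SE 0.0607). PPP2R5C and PPP5C fell by 0.21 and 0.20.

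The counts of the pathway lists below stand against 83.3% of all genes called, 41.7% higher and 41.6% lower, and no list was tested against that share. Of 12 MAP kinases tested 6 rose, 5 fell and 1 was not called (median 0.15). MAPK6 (ERK3) rose from 103 ± 1.88 to 175 ± 3.04 CPM, while MAPK3 (ERK1) fell from 79.1 ± 1.70 to 61.0 ± 1.04 CPM and MAPK12 (p38 gamma) from 44.2 ± 2.17 to 31.1 ± 1.48 CPM. MAPK8 (JNK1) rose by 0.24 on the log2 scale (SE 0.0651), a call lost with limma on log2(FPKM + 1) (0.12) and log2(FPKM + 0.1) (0.14), and with scaling to library size alone the value was also 0.14. MAPK14 (p38 alpha) was not called, at 84.3 and 88.3 CPM. Of 7 MAP2 kinases, which activate the MAP kinases, 6 rose, against 41.7% of all genes, and 1 was not called (median 0.77). MAP2K1 (MEK1) rose from 87.4 ± 1.79 to 163 ± 8.04 CPM and MAP2K4, an activator of JNK and p38, from 53.1 ± 2.56 to 105 ± 10.5 CPM. Of 23 MAP3 kinases 12 rose and 6 fell (median 0.27), with MAP3K10 at 1.79 and TAOK3 at 1.14 among those that rose and MAP3K6 at -1.43 and ARAF at -0.69 among those that fell.

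Scaffolds that hold MAPK modules together rose in 8 of 10 cases and fell in 2 (median 0.67), where 83.3% of all genes were called and 41.7% were higher. SPAG9 (JIP4) rose by 1.29 on the log2 scale and MAPK8IP1 (JIP1), a JNK scaffold, by 1.61, and IQGAP1 and ARRB2 fell by 0.54 and 0.32. Of 11 kinases activated by MAPKs 6 rose and 3 fell, with MKNK2, which phosphorylates the cap-binding factor eIF4E, at 54.1 ± 2.34 and 211 ± 3.07 CPM and RPS6KA4 (MSK2) at 121 ± 3.36 and 46.3 ± 0.837 CPM. MAPKAPK2 rose by 0.62 and MAPKAPK3 fell by 0.67. Feedback inhibitors of receptor and RAS signalling rose in 6 of 10 cases and fell in 1 (median 0.22). ERRFI1, an inhibitor of the EGF receptor, rose from 73.1 ± 5.84 to 171 ± 4.02 CPM and SPRED3, a repressor of the RAS and ERK pathway, from 17.4 ± 1.43 to 49.3 ± 1.85 CPM, and RASA1 fell by 0.19. SPRY2 was not called, at 41.8 ± 0.952 and 41.7 ± 2.88 CPM, and SPRY4 was at 10.1 and 12.2 CPM (log2 fold change 0.26, adjusted p 0.0354 by edgeR), a call lost when DMSO library 1 (0.18), DMSO library 3 (0.27) or tt-DDE library 2 (0.21) was left out. The SPRY4 call was also lost with library size alone (0.17), with DESeq2 (0.26), without a filter on low counts (0.24), with limma on log2(FPKM + 1) (0.11) and log2(FPKM + 0.1) (0.17), and at an adjusted p of 0.01.

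Genes that serve as a transcriptional readout of ERK were lower in 9 and higher in 5 of 15 cases (median -0.54), against 41.6% lower and 41.7% higher over all genes, a difference that was not tested. CCND1, cyclin D1, fell from 1769 ± 26.6 to 355 ± 87.4 CPM and EPHA2, an ephrin receptor, from 227 ± 1.11 to 96.4 ± 8.51 CPM, while HBEGF, an EGF receptor ligand, rose from 17.4 ± 1.54 to 62.4 ± 0.789 CPM and the ETS factor ETV5 by 0.86 on the log2 scale. DUSP4 and DUSP6, which are often read together with these genes, were at -0.81 and 0.35. In a list of AP-1, EGR, ATF, CREB, SRF and ELK factors, 11 of 17 tested genes rose and 5 fell (median 0.62). EGR1 and FOSL1 are also counted in the list of ERK readouts. ATF3 rose from 8.15 ± 0.445 to 370 ± 9.65 CPM and CREM, a cAMP response element modulator, from 15.7 ± 0.564 to 61.3 ± 2.61 CPM. FOS rose from 0.619 ± 0.382 to 5.87 ± 0.126 CPM, with 13, 3 and 13 counts in DMSO libraries 1 to 3, so DMSO library 2 was at the counting floor. JUN rose from 336 ± 4.55 to 516 ± 21.1 CPM. FOSL2 and FOSL1 fell by 0.93 and 0.54. EGR1 was at 2.19 ± 0.589 and 3.49 ± 0.364 CPM, a call (log2 fold change 0.68) lost without DMSO library 2 (0.51). Of 7 factors that bind AU-rich sequences 1 rose and 4 fell. ZFP36 (tristetraprolin), which speeds decay of such mRNAs, rose from 6.90 ± 0.899 to 12.6 ± 0.701 CPM, and HNRNPD and ZFP36L1 fell by 0.88 and 0.72. The part of these factors in the change of DUSP1 or DUSP8 was not tested.

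**Figure D5:**
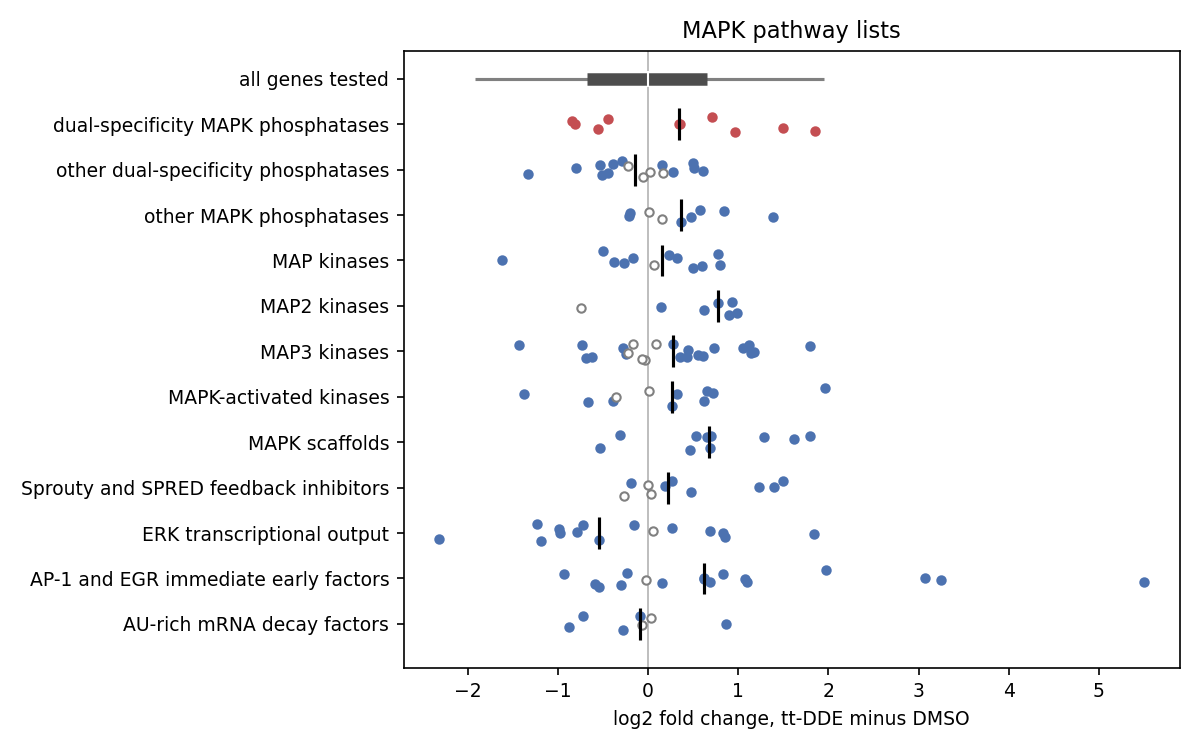
log2 fold change (tt-DDE minus DMSO) of the tested genes of each list, one point a gene, filled where called by edgeR and open where not, with a line at the list median and vertical jitter without meaning. The top row shows all 12531 genes tested (thin line from the 5th to the 95th percentile, -1.93 to 1.95, and thick bar from the 25th to the 75th, -0.68 to 0.66), and the 10 phosphatases in red lie between -0.84 and 1.85.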

How the data were processed

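RNA-seq of poly(A)-selected RNA gave 6 ARPE-19 libraries, 3 with DMSO and 3 with tt-DDE, grouped by the sample titles. Per the file headers, the authors deposited a read count and an FPKM per gene row and library; the counts are whole and not normalized. The deposited FPKM equalled the count over length and column total in 91254 of 91254 values above 0 (relative tolerance 1e-06). Per the submitters' processing notes the genome build is GRCh38.p13. Aligner, counter and use of strand: not given in the sources used here.

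Rows sharing a name were summed (22312 rows, 19514 names) and fitted in R 4.3.3 with edgeR 4.0.16, with TMM factors, filterByExpr, glmQLFit, glmQLFTest and group as the only term. Tests were two-sided and p-values adjusted over 12531 genes at 0.05. The median SE of a log2 fold change was 0.0742. In simulated counts for the 12075 genes kept there, 200 genes were changed, as many up as down, at a fixed dispersion of 0.002. Recovery was 60% for 1.25-fold changes and 98% for 4-fold changes, and 7 unchanged genes were called. In the data 83.3% of genes were called, so the simulation cannot vouch for the scaling or the rate of false calls. Within groups, chi-square over its degrees of freedom was 1.74 to 3.58, so no pair agreed within sampling noise. PCR copies make reads dependent, so the counting error is all that intervals and floors cover.

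Alternatives used DESeq2 1.42.0, limma 3.58.1 on log2(FPKM + 1) and log2(FPKM + 0.1), other filters and scaling, single rows and left-out libraries. Beyond the 10 genes, the 2 genes of smallest p in each direction of each list were named, with 11 fixed by name. A few genes of these lists are not reported here. Markers and a few genes with lost calls are also given. The genes, lists and tests were chosen with earlier results of these data known. Motifs were chosen after the results were seen.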

Additional observations from a re-analysis of the deposited data

How the results depend on the processing

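The 10 phosphatase genes kept their direction under all 15 alternatives tried for each, and 8 of them also kept their call. Among the 15, the stricter threshold of 0.01 reuses the main fit, so it could not change a direction. DUSP2 had a log2 fold change of -0.86 with DESeq2 (adjusted p 0.0506), not called, and of -1.05 to -0.61 with 1 library left out, the weakest without DMSO library 1. DUSP6 had 0.20 with limma on log2(FPKM + 1) and 0.24 on log2(FPKM + 0.1), neither called, and 0.21 to 0.42 with 1 library left out. Of the MAP2 kinases 1 was called lower when scaled to library size alone, and 0 to 1 with 1 library left out. With CPM in place of FPKM, which removes the division by length, the DUSP1 share was 34.5% in DMSO and 46.7% after tt-DDE, that of DUSP4 29.3% and 13.9%, and that of DUSP5 11.1% and 17.9%. No result reversed. Counts over all genes stayed within 1.5 times of 5223 higher and 5210 lower, and library size alone moved the share of calls that were higher from 50.1% to 45.4%. DESeq2, which tested 16493 genes, put the median log2 fold change of its genes 0.12 above the main one.

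Replicate numbers are shared by the groups, but deviations from the group means did not follow them (correlations of -0.026, 0.0084 and -0.012 for numbers 1 to 3). With the replicate block 5192 genes were higher and 5179 lower, and the calls of the 10 phosphatases were the same. Low counts limit DUSP2, DUSP8 and DUSP16 most, at 53 or fewer counts a library. For DUSP8 and DUSP16, depth and the handling of reads that match several rows cannot be told apart.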
